A study of Mus musculus with 22 samples.

Results

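The Notch genes described here are 9 transcripts of the mouse table: the receptors Notch1, Notch2 and Notch3, the ligands Jag1, Jag2, Dll1 and Dll4, and the target genes Hes1 and Hey1. They were taken as a list of gene symbols, chosen with earlier results of these data known, are 9 of 54514 gene entries, and were followed over 22 RNA-seq libraries in 10 groups. The cells are mpkCCD, an immortalised line from the mouse kidney cortical collecting duct that makes the water channel aquaporin-2 (Aqp2). Wild-type (WT) cells, which carry no reporter, were given vehicle (WT control, 3 libraries) or the vasopressin V2 receptor agonist dDAVP (WT dDAVP, 3 libraries). Of the GFP reporter cells there are the lines C1, C11, C43 and C50, given dDAVP throughout, and for each line 2 libraries of GFP-negative and 2 libraries of GFP-positive cells. All groups grew on permeable supports in a medium that contained dexamethasone. Each reporter line is called a clone here, and each is 1 line, so a clone is not a replicate of another. The labels list more than 1 dose and duration of dDAVP without tying them to libraries, and how the reporter was built is not given in the sources used here. No GFP fraction without dDAVP was analysed, so the fractions are compared under dDAVP only.

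Notch receptors are membrane proteins that are cleaved when a Jagged or Delta-like ligand on a neighbouring cell binds them. The freed intracellular part enters the nucleus, joins the DNA-binding protein RBPJ and a Mastermind coactivator, and switches on targets such as the repressors Hes1 and Hey1. In the kidney collecting duct, Notch signalling is known for favouring the principal cell, which carries aquaporin-2, over the intercalated cell.

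Promoter sequences are printed for the ligand gene Jag1, which differed between vehicle and dDAVP, and for Lfng and Rbpj, other genes of the pathway that differed between the GFP fractions. Each is the 250 bases before the RefSeq transcription start on GRCm38.p6, in the direction of the gene. A window was found for 7 of the 9 members. Hes1 and Hey1 were not matched. In Jag1 the capitals mark CACGCG or its reverse complement CGCGTG, a form of the HES binding motif, which 7.6% of 32817 RefSeq promoter windows of this length hold. In Lfng and Rbpj they mark TGGGAA or its reverse complement TTCCCA, the core of the RBPJ motif, which 21.6% of the windows hold.
Jag1, chr2:137116521-137116770, minus strand: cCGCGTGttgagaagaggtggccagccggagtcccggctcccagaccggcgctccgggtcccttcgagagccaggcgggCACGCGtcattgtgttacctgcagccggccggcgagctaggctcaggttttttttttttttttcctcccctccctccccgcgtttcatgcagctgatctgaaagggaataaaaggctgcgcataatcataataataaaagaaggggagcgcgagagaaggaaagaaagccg
Lfng, chr5:140607091-140607340, plus strand: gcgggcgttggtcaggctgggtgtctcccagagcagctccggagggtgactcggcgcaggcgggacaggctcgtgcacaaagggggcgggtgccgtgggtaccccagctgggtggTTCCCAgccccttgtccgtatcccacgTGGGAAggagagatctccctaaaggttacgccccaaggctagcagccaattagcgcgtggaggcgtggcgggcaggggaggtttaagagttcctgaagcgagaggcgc
Rbpj, chr5:53590096-53590345, plus strand: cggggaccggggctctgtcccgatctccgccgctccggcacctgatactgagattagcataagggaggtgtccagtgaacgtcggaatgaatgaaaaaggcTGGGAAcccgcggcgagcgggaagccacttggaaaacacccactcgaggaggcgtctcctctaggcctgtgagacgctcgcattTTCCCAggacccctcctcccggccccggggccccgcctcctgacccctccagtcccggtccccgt
The Jag1 window holds 2 HES matches, whose first bases lie at -249 and -171 from the start. A cyclic AMP response element half-site (TGACG or CGTCA), a motif that 17.7% of windows hold, begins at -167 of the same window and overlaps the second HES match. The Lfng window holds RBPJ matches at -135 and -108, and the Rbpj window, 1 of 2 listed for this gene, holds them at -149 and -65. In the windows of the 7 matched members there were 0 RBPJ matches. Of these members Dll4 (-195), Notch2 (-42) and Dll1 (-68) also held a HES match, and Notch3 (-184) a cyclic AMP response element half-site. Lfng held a HES match too (-55). Windows of Dlk2 and Nrarp, which also differed between the fractions, were scanned as well. They held no RBPJ match, and each held such a half-site (-90 and -69). A match describes letters and is not evidence of binding.

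Expression is in TPM, the authors' transcript abundance, which is corrected for gene length and scaled to a fixed total. Libraries held between 12293 and 14341 genes at 1 TPM or more. Aqp2 was 69.1 ± 5.43 TPM (SD, n = 3) in WT control and 2868 ± 139 in WT dDAVP, and in each clone its mean was higher in the GFP-positive fraction. Among markers, the principal cell list (8 or 9 of 12 genes at a mean of 1 TPM or more in the pooled groups) summed to 951 to 1041 TPM in WT control, 3896 to 4342 in WT dDAVP, 620 to 3031 in the GFP-negative and 3161 to 10796 in the GFP-positive libraries. The principal cell markers Elf5, Scnn1b and Kcnj1 stayed under 1 TPM in all 22 libraries. The intercalated cell list (2 or 3 of 12 genes at a mean of 1 TPM or more) summed to 137.8 to 139.55 TPM in WT control, 137 to 168 in WT dDAVP, 23.1 to 75.1 in GFP-negative and 48.0 to 113 in GFP-positive libraries. Its defining genes Foxi1, Slc4a1 and Slc26a4 had a median of 0 TPM, whereas Atp6v1b1, a proton pump subunit, measured 19.4 to 110.1 TPM (median 57.4) and Rhcg, an ammonia channel, 0 to 111 TPM (median 1.11). The part of these markers in the results was not tested. The library C50 GFP-negative replicate 1 stood apart: its TPM fell most steeply with gene length (a slope of -0.16 log2 units per doubling of length, against -0.07 to 0.07 in the other 21), and its ribosomal-protein share was the highest, at 7.87%. Values without it stand beside the pooled changes of the tested members between GFP fractions, and beside only some of the other results that it moves. Because Notch1, Notch2 and Notch3 have exonic lengths of 14232, 10782 and 8089 bases against a median of 3930 for tested genes, and Hes1 has 2037, the members sit on both sides of such a trend.

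**Figure D1:**
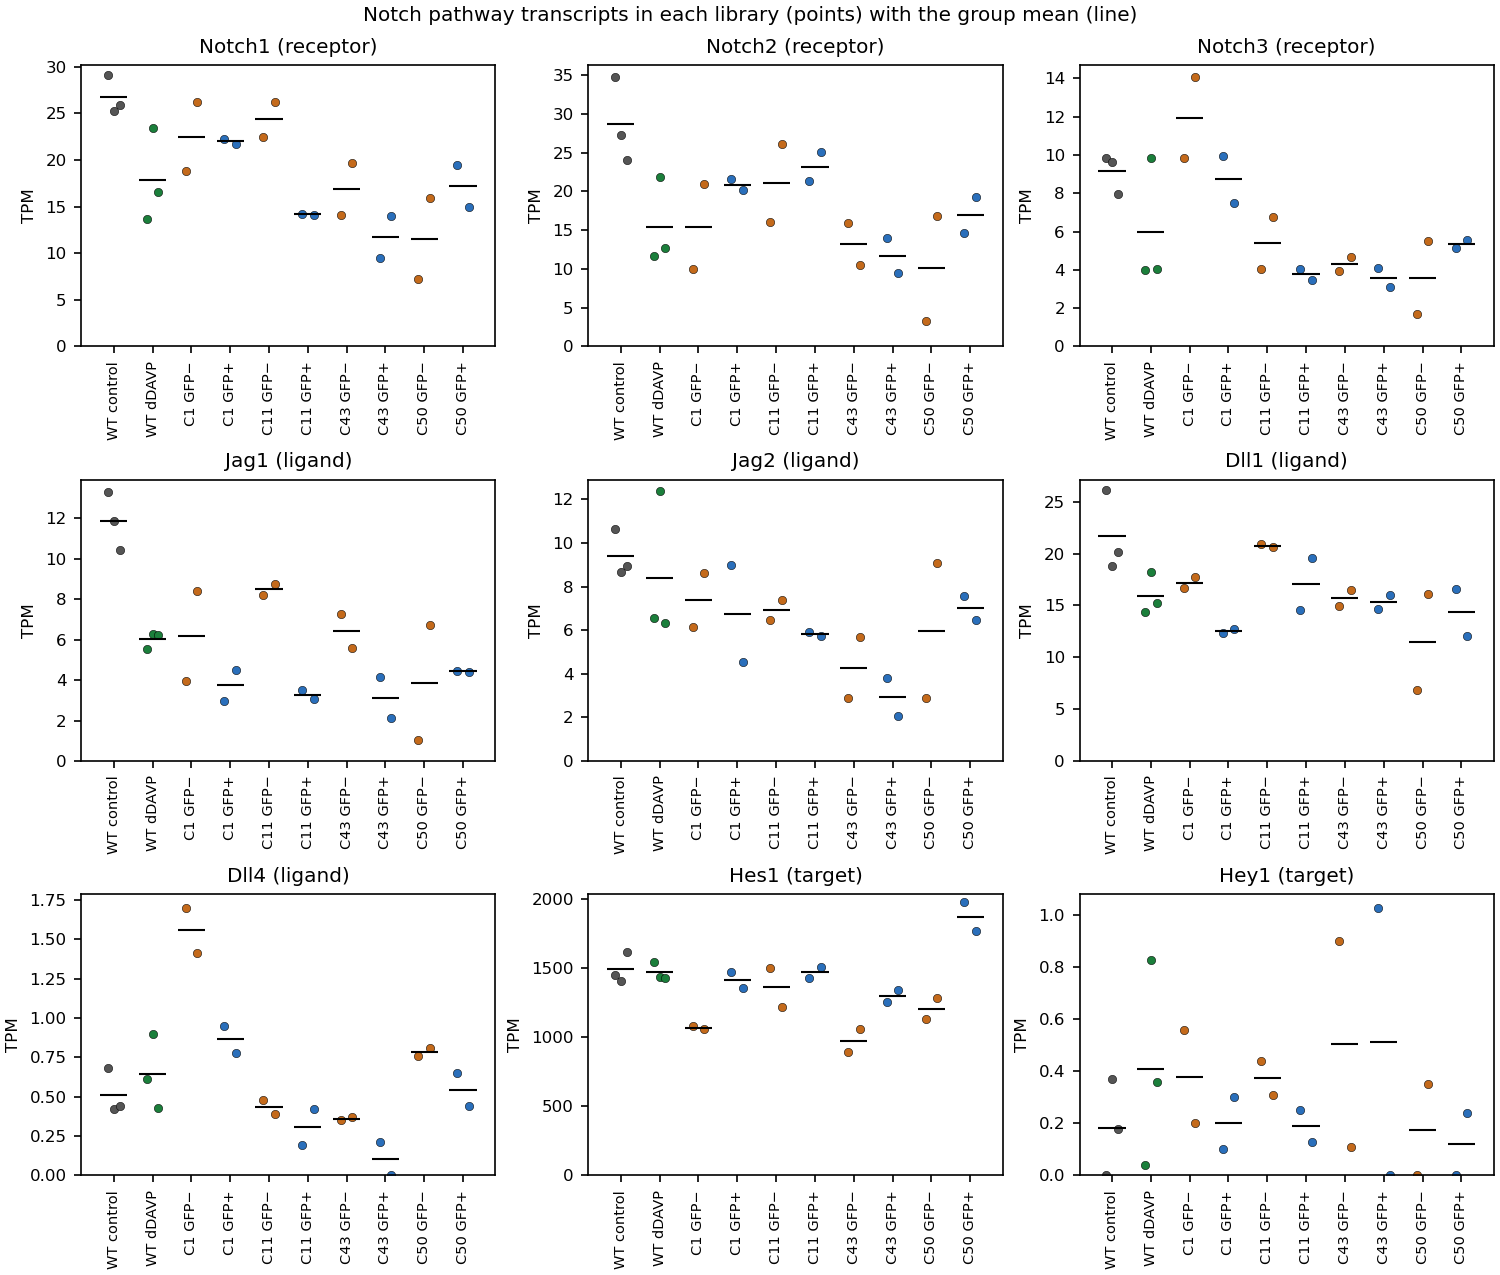
TPM (linear axis from 0) of the 9 genes in each of the 22 libraries (points), with the mean of each of the 10 groups as a line. Hes1 lies between 893 and 1979 TPM, whereas Dll4 and Hey1 stay at 1.70 and 1.03 TPM or less.

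Hes1, the transcriptional repressor that is the classical Notch target, was by far the most abundant member. Its median over 22 libraries was 1419 TPM, and its mean lay at the 99.5th percentile of genes with a mean of 1 TPM or more. In each library it exceeded the next highest member by a factor of 40.4 to 156. The other target, Hey1, was at the opposite end of the scale, with a median of 0.245 TPM, 0 in 4 libraries and 1 TPM or more in only 1.

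Among the receptors, Notch1 and Notch2 had similar median levels over the 22 libraries, 19.1 and 18.1 TPM, and Notch3 was lower at 5.35 TPM. The ligand Dll1 had a median of 16.3 TPM, above Jag2 with 6.46 TPM and Jag1 with 5.58 TPM. Dll4, a ligand best known from blood vessels, had a median of 0.460 TPM and reached 1 TPM in 2 libraries, both of C1 GFP-negative cells (1.41 and 1.70 TPM). The endothelial markers Cdh5, Kdr and Tek had medians of 0.02 TPM or less over the libraries, whereas Egfl7 of the same list measured 48.4 to 111 TPM (median 63.0). It was the 1 of the 8 listed genes at a mean of 1 TPM or more, and the list summed to 49.35 to 85.0 TPM in GFP-negative, 62.1 to 111 in GFP-positive, 52.2 to 58.0 in WT control and 64.4 to 67.1 in WT dDAVP libraries. Thus 7 members passed the filter for testing, a mean of 1 TPM over the libraries of a comparison, and Dll4 and Hey1 did not.

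The order of the 10 group means differed between members. For Hes1 it ran from C50 GFP-positive (1873 ± 151 TPM, SD, n = 2), which did not overlap WT control as the next group, to C43 GFP-negative (975 ± 116 TPM, n = 2), and the highest mean was 1.92 times the lowest. The 7 groups from WT control down to C50 GFP-negative overlapped each with its neighbour, and C1 GFP-negative and C43 GFP-negative lay below them without overlap. Jag1 had the widest span among the tested members, 3.80 times, from WT control (11.9 ± 1.43 TPM, n = 3) to C43 GFP-positive (3.13 ± 1.46 TPM, n = 2). WT control, C11 GFP-negative and WT dDAVP each stood above the next group without overlap. The 5 lowest means were those of the 4 GFP-positive groups and C50 GFP-negative, each overlapping its neighbour in the order. C50 GFP-negative (3.875 TPM) is among them only with replicate 1, since its other library measured 6.73 TPM.

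For Notch1 and Notch2, WT control also had the highest mean (26.7 ± 2.05 and 28.7 ± 5.46 TPM, n = 3) and C50 GFP-negative the lowest (11.6 ± 6.08 and 10.1 ± 9.57 TPM, n = 2). That lowest place holds only with replicate 1 of the group: the other replicate measured 15.9 and 16.9 TPM, and without replicate 1 the lowest mean of both genes was that of C43 GFP-positive (11.735 and 11.725 TPM). Notch3 was highest in C1 GFP-negative cells (12.0 ± 3.00 TPM, n = 2). The group means spanned 2.31 times for Notch1, 2.84 times for Notch2, 3.32 times for Notch3, 3.22 times for Jag2 and 1.90 times for Dll1, and each of these orders had 1 pair of neighbouring groups without overlap. WT and clone libraries differ in clone and in fractionation at once, so no test was made between them.

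The first comparison asked how the Notch genes of unsorted WT cells differed after dDAVP. Jag1, a ligand of Notch receptors, fell to 0.507 of its control mean. The receptors Notch1, Notch2 and Notch3 and the ligand Dll1 had lower means whose differences did not pass the test over all genes, and Hes1 was nearly level. Of the 7 tested members 1 was called (limma, adjusted p under 0.05 over all genes tested), against 8.88% of 13494 genes in either direction and 6.51% called lower.

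Jag1 measured 13.3, 11.9 and 10.5 TPM in the 3 WT control libraries and 5.55, 6.27 and 6.25 TPM in the 3 WT dDAVP libraries. All dDAVP libraries lay below all control libraries. In such bulk libraries fewer cells with a transcript and less of it per cell cannot be told apart. On the log2(TPM + 1) scale, which understates changes of low genes, the change was -0.87 (SE 0.13, limma adjusted p = 0.0108). Over 17 alternative settings the change ranged from -0.96 to -0.65 and the adjusted p from 0.00776 to 0.109. It passed the threshold in 14 of them. Among the others, it was lost without WT control replicate 2 (-0.87, limma adjusted p = 0.0508) and within the 4 libraries with more genes detected (-0.90, limma adjusted p = 0.109). The other 2 WT libraries, 1 per group, allowed no test.

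Notch2 measured 34.7, 27.2 and 24.1 TPM in WT control and 11.7, 21.9 and 12.7 TPM in WT dDAVP. The groups did not overlap, and WT dDAVP replicate 2 was the highest of the treated libraries. The change was -0.89 (SE 0.24, limma adjusted p = 0.0605).

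Notch1 measured 29.1, 25.2 and 25.9 TPM in WT control and 13.7, 23.4 and 16.6 TPM in WT dDAVP. Again the groups did not overlap and treated replicate 2 lay closest to the controls. The change was -0.58 (SE 0.18, limma adjusted p = 0.0835).

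Notch3 measured 9.84, 9.65 and 7.95 TPM in WT control and 3.98, 9.83 and 4.05 TPM in WT dDAVP. Treated replicate 2 lay within the control range, so the groups overlapped. The change was -0.64 (SE 0.30, limma adjusted p = 0.194). Without WT dDAVP replicate 2, Jag1, Notch1, Notch2 and Notch3 were all called, at -0.90, -0.78, -1.16 and -1.01 on the log2 scale. Their limma adjusted p-values were then 0.0195, 0.0171, 0.0143 and 0.0162, and 15.2% of all genes were called (2038 of 13388).

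Dll1 measured 26.2, 18.8 and 20.1 TPM in WT control and 14.3, 18.2 and 15.2 TPM in WT dDAVP, without overlap, and its change of -0.42 (SE 0.15) had a limma adjusted p of 0.114. Jag2 overlapped between the groups, with 8.66 to 10.7 TPM in control and 6.31 to 12.4 TPM after dDAVP (log2 change -0.20, limma adjusted p = 0.593). Without WT dDAVP replicate 2, the library at 12.4 TPM, the Jag2 change was -0.48 (limma adjusted p = 0.0641). Hes1 measured 1450.4, 1408 and 1614 TPM in WT control and 1543, 1435 and 1431 TPM in WT dDAVP. Its change was -0.02 with a 95% confidence interval of ± 0.17 (limma adjusted p = 0.873), and its sign turned with the scaling (0.15 under median-ratio scaling). Dll4 and Hey1 stayed under 1 TPM in all 6 libraries.

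The changes have to be read against the whole table. Of 1198 genes called, 320 were higher, and under median-ratio scaling 451 of 757. Over all 13494 tested genes the median log2 change was -0.16 and 70.4% were negative, and for the members the median was -0.58 with 7 of 7 negative. Dll1, Jag1, Notch1 and Notch2 lay without overlap below control, as did 28.7% of all genes. The slope of TPM with gene length was 0.04 to 0.07 log2 units per doubling in the 3 control libraries and -0.04 to 0.01 in the 3 treated ones. With that trend removed, Jag1 changed by -0.80 (limma adjusted p = 0.00776) and Notch2 by -0.75 (limma adjusted p = 0.0361).

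**Figure D2:**
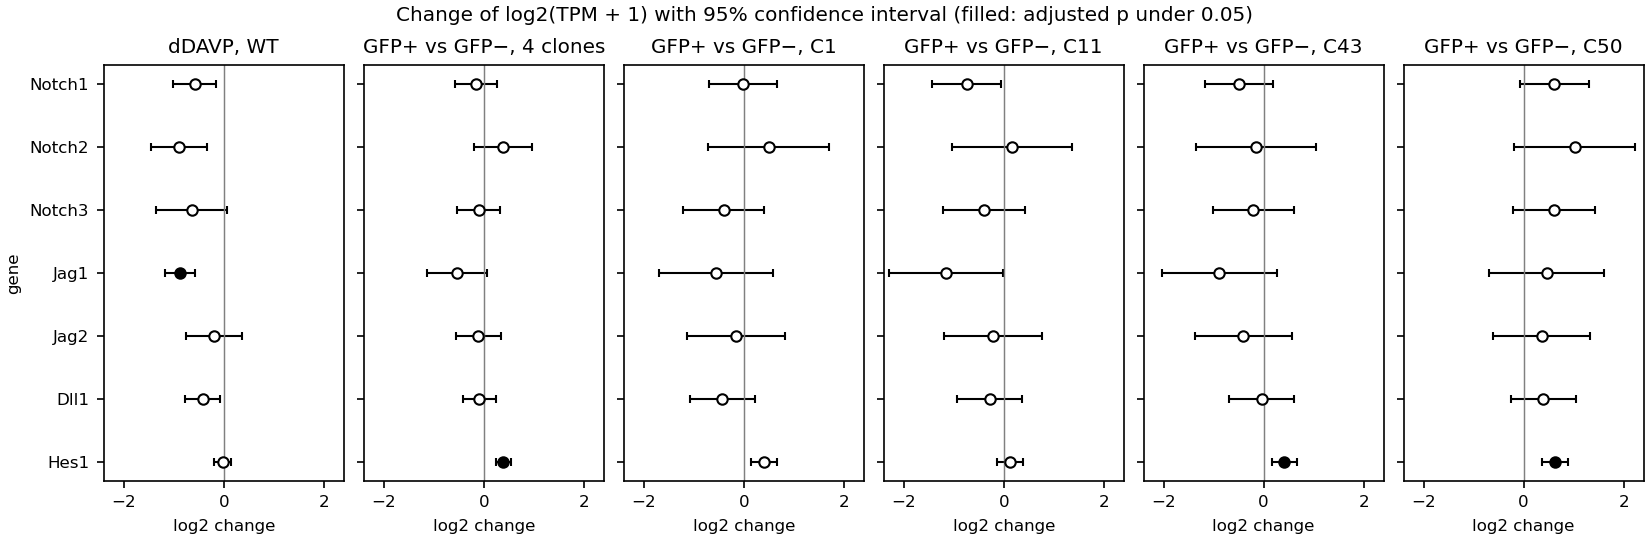
Changes of log2(TPM + 1) of the 7 tested genes with 95% confidence intervals, for dDAVP against control in WT cells, for GFP-positive against GFP-negative over 4 clones, and within each clone. Filled points passed the test over all genes: Jag1 in the dDAVP panel (-0.87), and Hes1 over the 4 clones (0.39), in C43 (0.42) and in C50 (0.63).

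The second comparison asked how the Notch genes differed between the GFP fractions of a clone, all of them exposed to dDAVP. Hes1 was higher in the GFP-positive mean of 4 of 4 clones, by a factor of 1.33 in C1, of 1.08 in C11, of 1.33 in C43 and of 1.55 in C50. Jag1 was lower in the GFP-positive mean of 3 clones and higher in C50, a difference that did not pass the test with all libraries. Of the 7 tested members 1 was called over the 4 clones (limma, clone as covariate), against 35.3% of 13113 genes.

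Hes1 measured 1077 and 1057 TPM in C1 GFP-negative and 1475 and 1353 TPM in C1 GFP-positive libraries. In C11 it measured 1501 and 1219 TPM in the GFP-negative and 1430.3 and 1508 TPM in the GFP-positive libraries. C1 separated the fractions fully, and in C11 they overlapped. C43 gave 893 and 1057 TPM without GFP and 1253 and 1341 TPM with it. C50 gave 1132 and 1282 TPM without GFP and 1979 and 1766 TPM with it. In both of these clones every GFP-positive library lay above every GFP-negative one. The share of all genes that separated in single clones was not counted. Such separations of 2 against 2 libraries, here and for the members below, are description only.

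The pooled Hes1 change was 0.39 on the log2 scale (SE 0.07, limma adjusted p = 0.000792), and 12.1% of all genes were called higher (1582 of 4626 calls, and 2382 of 4676 under median-ratio scaling). A higher mean in all 4 clones was shared by 16.2% of tested genes. Over 33 alternative settings the change ranged from 0.31 to 0.53 and the adjusted p from 0.000149 to 0.0951. It missed the threshold in the 8 clone libraries that detected fewer genes (0.53, limma adjusted p = 0.0836) and in the 8 that detected more (0.32, limma adjusted p = 0.0951). Without C50 GFP-negative replicate 1 it was 0.35 (limma adjusted p = 0.000585).

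In single clones, Hes1 was called in C43 (0.42, SE 0.12, limma adjusted p = 0.0342) and C50 (0.63, SE 0.12, limma adjusted p = 0.00271). The changes of 0.40 in C1 and 0.12 in C11 were not called (limma adjusted p = 0.0669 and 0.655). The number of members called was 0 of 7 for C1 as for C11, and 1 for C43 as for C50, against 7.22%, 7.94%, 16.3% and 26.6% of all genes. At an unadjusted p under 0.05, Hes1 passed in C1, and Jag1 and Notch1 passed in C11, where 19.7% and 20.7% of all genes did. The C43 call was lost in 12 of 26 alternatives, among them no filter, quantile normalization, no trend in the moderation and the length trend removed. Those 12 also include leaving out any 1 of 7 libraries: C43 GFP-negative replicate 1, either C43 GFP-positive, either C1 GFP-negative or either C11 GFP-positive library. Its adjusted p ranged from 0.0147 to 0.261, whereas that of C50 ranged from 0.00101 to 0.0333.

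Jag1 measured 3.95 and 8.43 TPM in C1 GFP-negative and 2.96 and 4.52 TPM in C1 GFP-positive libraries. In C11 it measured 8.21 and 8.76 TPM without GFP and 3.52 and 3.04 TPM with GFP. The C11 fractions did not overlap, and those of C1 did. In C43 the values were 7.27 and 5.6 TPM without GFP and 4.16 and 2.10 TPM with GFP, again without overlap. In C50 they were 1.02 and 6.73 TPM without GFP and 4.45 and 4.40 TPM with GFP. The value of 1.02 TPM, the lowest Jag1 level of all 22 libraries, belongs to the library that stood apart.

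With all 16 libraries the Jag1 change was -0.53 (SE 0.28, limma adjusted p = 0.164). Without C50 GFP-negative replicate 1 it was -0.80 (limma adjusted p = 0.00124), and without clone C50 -0.86 (limma adjusted p = 0.00397). The adjusted p spanned 0.00124 to 0.852 over 32 alternatives. Within the libraries with more genes detected the change was -0.79 (limma adjusted p = 0.0125), and within those with fewer, which include that library, it was -0.21 (limma adjusted p = 0.852).

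Dll1, the most abundant ligand, measured 16.6 and 17.7 TPM in C1 GFP-negative and 12.4 and 12.7 TPM in C1 GFP-positive libraries. In C11 it measured 20.9 and 20.6 TPM without GFP and 14.6 and 19.6 TPM with GFP. In both clones the GFP-positive libraries lay below the GFP-negative ones. The C43 values overlapped (15.0 and 16.5 against 14.65 and 15.98 TPM), and in C50 they were 6.80 and 16.1 against 16.6 and 12.1 TPM. The pooled change of -0.09 (SE 0.16, limma adjusted p = 0.713) was -0.23 without C50 GFP-negative replicate 1 (limma adjusted p = 0.0415).

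Notch1 measured 22.5 and 26.3 TPM in C11 GFP-negative and 14.2 and 14.1 TPM in C11 GFP-positive libraries. In C43 it measured 14.1 and 19.7 TPM without GFP and 9.44 and 14.0 TPM with GFP. The fractions did not overlap in these 2 clones. Its pooled change was -0.16 (SE 0.20, limma adjusted p = 0.577), -0.32 without C50 GFP-negative replicate 1 (limma adjusted p = 0.0707) and -0.42 without clone C50 (limma adjusted p = 0.0390). Notch2 was the receptor with a positive pooled change, 0.38 (SE 0.27, limma adjusted p = 0.30), and 0.14 without C50 GFP-negative replicate 1, where Notch2 stood at 3.32 TPM. Notch3 and Jag2 had log2 differences of -0.10 and -0.10 (limma adjusted p = 0.746 and 0.748), and of -0.28 and -0.27 without C50 GFP-negative replicate 1 (limma adjusted p = 0.0755 and 0.178). Notch1, Notch2, Notch3, Jag2 and Dll1 had fraction ranges that overlapped in at least 2 of the 4 clones. The share of all genes that overlapped in as many clones was not counted.

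In C50 all 7 tested members had a positive change, with a median of 0.60 against 0.09 over all genes. In C1, C11 and C43 the members' medians were -0.16, -0.28 and -0.21, against -0.06, -0.12 and -0.16 over all genes. The C50 values rest on the library that stood apart. Without it, with 1 GFP-negative library left in C50, the members' median there was -0.04 against -0.09 over all genes, and 5 of 7 changes were negative. These were Notch2 (-0.0043), Notch3 (-0.04), Jag1 (-0.51), Jag2 (-0.33) and Dll1 (-0.17), none of them called by limma, and Hes1 was 0.54 (limma adjusted p = 0.0139). In that fit the lone library was assumed to vary like those of the other groups, so its calls rest on their spread. Whether the fraction change itself differed between clones was tested by an interaction term in limma: 0 of 7 members were called, against 0.869% of all genes. At an unadjusted p under 0.05 there was 1, Notch1 (limma adjusted p = 0.379), against 12.9% of all genes. Without C50 GFP-negative replicate 2, which leaves the library that stood apart as the only one of its group, 5 members were called in that test and 10 rather than 2 of 28 within clones, where 38.6% of all genes and 29% of all gene and clone pairs were called. Without C50 GFP-negative replicate 1 the counts were 0 and 5, against 2.49% and 21.7%.

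Levels that differed between clones, whatever the fraction, were called by limma for 2 of 7 members, Hes1 and Notch3 (adjusted p = 0.0234 and 0.0138), against 28% of all genes. Notch3 was highest in C1, with 9.83 and 14.1 TPM in the GFP-negative and 9.96 and 7.51 TPM in the GFP-positive libraries. The C1 libraries all lay above the 1.67 to 6.76 TPM of the other 12 clone libraries. The adjusted p for Notch3 spanned 0.000276 to 0.0680 over 26 alternatives, and that for Hes1 spanned 0.00382 to 0.104. The Notch3 call was lost without C1 GFP-negative replicate 2 or C1 GFP-positive replicate 1, and the Hes1 call without C43 GFP-negative replicate 1 or C43 GFP-positive replicate 1, with no filter, with quantile normalization and with the length trend removed.

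The rest of the pathway was read from a list of 57 genes grouped by role. After dDAVP in WT cells 45 of them were tested and 0 were called by limma, against 8.88% of all genes. At an unadjusted p under 0.05 there were 15, where 31.0% of all genes lay. Without WT dDAVP replicate 2, 10 were called, against 15.2% of all genes (2038 of 13388). The list's median log2 change was -0.22, against -0.16 over all genes. Between the GFP fractions 44 were tested and 15 were called. Of these 7 were higher with GFP and 8 lower, against 12.1% and 23.2% of all genes. The list's median was -0.0023 against -0.06 over all genes, and its share of calls lies near the 35.3% among all genes. Under median-ratio scaling the calls were 11 higher and 8 lower, and without C50 GFP-negative replicate 1 they were 7 higher and 15 lower, where 35.7% and 46% of all genes were called.

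Lfng, the Fringe glycosyltransferase that adds sugar to Notch receptors and alters which ligands they answer to, had the largest change of the list. It measured 6.33 to 10.6 TPM in the 8 GFP-negative libraries and 0.640 to 2.01 TPM in the 8 GFP-positive ones. GFP-positive libraries lay below GFP-negative ones without overlap in 4 of 4 clones, as they did for 12.2% of tested genes. The pooled change was -2.08 (SE 0.14, limma adjusted p = 8.27e-08), and it was called in each clone, from -2.47 in C50 to -1.71 in C11. It passed the threshold in 32 of 32 alternatives, including both sets of libraries split by genes detected. WT cells lay between the clone fractions in mean, with 5.77 ± 1.23 TPM (n = 3) in control and 3.84 ± 1.83 TPM (n = 3) after dDAVP, which did not differ by limma (log2 change -0.53, adjusted p = 0.245). Its promoter window, printed above, holds 2 RBPJ matches.

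Dlk2, a Delta-like membrane protein related to the Notch ligands, was likewise lower in GFP-positive cells. Its libraries ranged from 2.83 to 5.44 TPM without GFP and from 0.26 to 1.62 TPM with GFP, where the 2 C50 libraries (0.26 and 0.29 TPM) were lowest. No GFP-positive library reached a GFP-negative one of any clone. Within 4 of 4 clones, 12.2% of tested genes were lower without overlap, and the share over all clones at once was not counted. The pooled change was -1.39 (SE 0.15, limma adjusted p = 9.95e-06), and only within the libraries with fewer genes detected did it miss the threshold (-1.38, limma adjusted p = 0.0673).

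**Figure D3:**
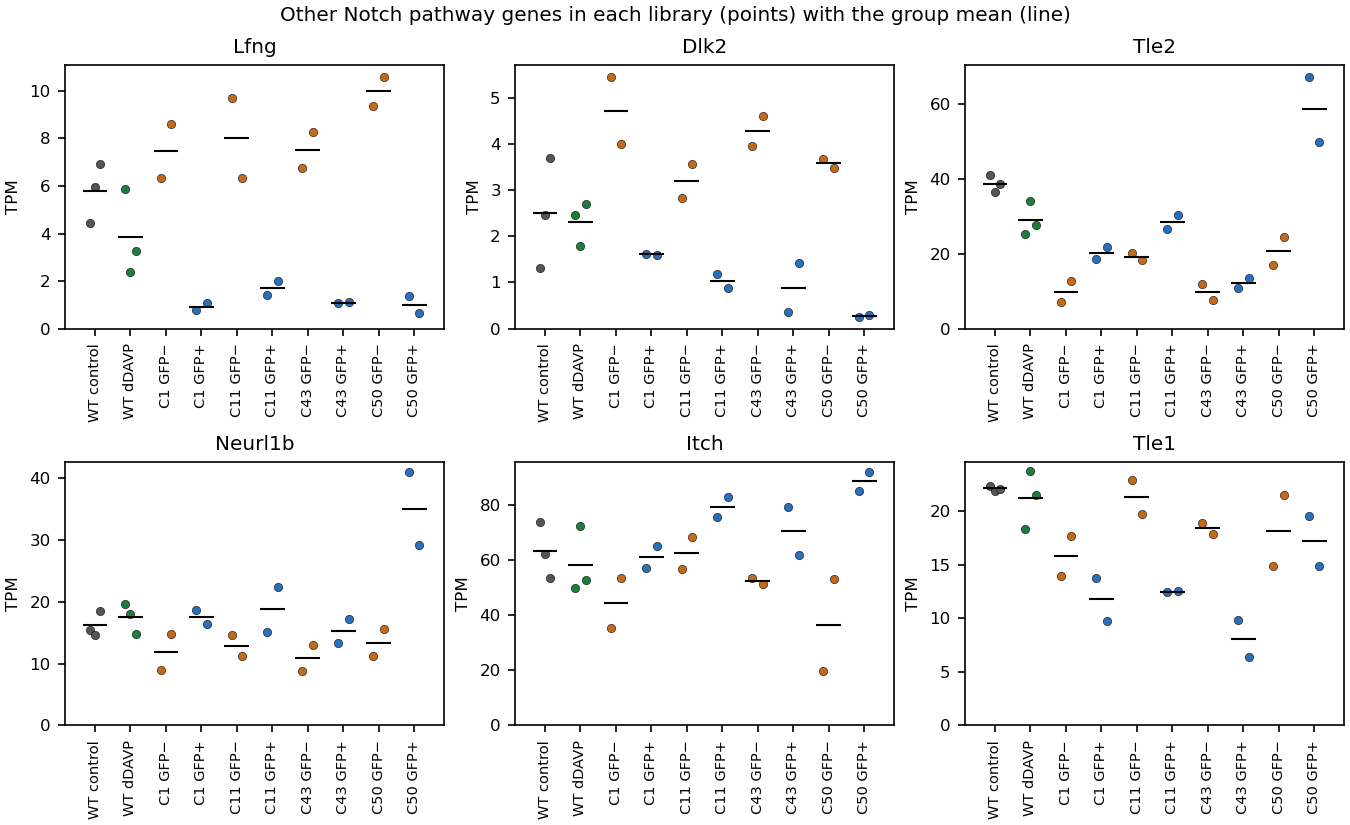
TPM (linear axis from 0) of the 6 other Notch pathway genes with the largest called changes between GFP fractions, in each of the 22 libraries (points) with group means (lines). Lfng is at 2.01 TPM or less in the GFP-positive libraries and at 6.33 TPM or more in the GFP-negative ones, and Tle2 is highest in C50 GFP-positive cells.

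The corepressors of the Groucho family, which bind HES proteins, went in both directions. Over the 4 clones Tle2 rose by 0.83 (SE 0.17, limma adjusted p = 0.00171). C50 had the largest change of its own (1.46, limma adjusted p = 0.00377), from 16.9 and 24.5 TPM without GFP to 67.3 and 49.7 TPM with it. The changes of 1.01 in C1, 0.54 in C11 and 0.32 in C43 were not called (limma adjusted p = 0.0607, 0.327 and 0.505). Tle4 was called higher (0.34) and Tle1 lower (-0.58, SE 0.15, limma adjusted p = 0.00781). Tle1 measured 12.4 and 12.5 TPM in C11 GFP-positive against 23.0 and 19.8 TPM in C11 GFP-negative libraries, and overlapped between the fractions in C50. In all, 3 of 8 tested corepressors were called, 2 higher and 1 lower, against 12.1% of all genes called higher and 23.2% lower. The Tle4 call held in 17 of 33 alternatives, counting a gene that a filter removed as not called. Tle2 missed the threshold in both sets of libraries split by genes detected (1.17 and 0.44, limma adjusted p = 0.116 and 0.141), and Tle1 in the set with fewer (-0.37, limma adjusted p = 0.586), without C11 (-0.53, 0.0672), without C43 (-0.40, 0.0746) and with clone means as replicates (0.0697).

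Among inhibitors and turnover factors 6 of 9 tested genes were called, 3 in each direction, against 35.3% of all genes in either direction, 12.1% higher and 23.2% lower. Itch, a ubiquitin ligase that acts on Notch, rose by 0.66 (SE 0.19, limma adjusted p = 0.0142), and by 0.47 without C50 GFP-negative replicate 1, where it stood at 19.9 TPM against 53.1 in the other library of that group. Its call was lost with clone means as replicates (limma adjusted p = 0.0519) and in the libraries that detected fewer genes (0.85, limma adjusted p = 0.263). The Deltex genes Dtx3l (0.50) and Dtx4 (0.55) were called higher and Dtx2 (-0.46) lower, the Dtx4 call holding in 13 of 33 alternatives. Numbl (-0.56), a relative of the Notch inhibitor Numb, and Nrarp (-0.50), an inhibitor that is itself a Notch target, were called lower. Numbl was called in 25 of 33 alternatives, Nrarp in 29, and Dtx2 and Dtx3l in 30 each. All 4 were lost with clone means as replicates and in the libraries that detected fewer genes, Nrarp, Dtx2 and Numbl without clone C1, and Nrarp, Dtx3l and Numbl without clone C43. Nrarp was 8.24 ± 0.382 TPM (n = 2) in C1 GFP-negative and 3.88 ± 0.255 TPM (n = 2) in C1 GFP-positive cells, a change of -0.92 (limma adjusted p = 0.0454). Its changes of -0.24 in C11, -0.75 in C43 and -0.10 in C50 were not called (limma adjusted p = 0.665, 0.0613 and 0.805). In C1 Hes1, also a Notch target, had a higher GFP-positive mean (limma adjusted p = 0.0669).

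Of the 3 tested ubiquitin ligases that act on ligands, Neurl1b alone was called and rose by 0.71 over the 4 clones (SE 0.16, limma adjusted p = 0.00339), where 12.1% of all genes were called higher. Of single clones C50 alone was called (1.32, limma adjusted p = 0.00755), with 29.1 and 41.0 TPM with GFP against 11.2 and 15.6 TPM without. The changes were 0.57 in C1, 0.49 in C11 and 0.45 in C43 (limma adjusted p = 0.333, 0.404 and 0.347). It missed the threshold within the libraries with fewer genes detected (0.91, limma adjusted p = 0.193) and within those with more (0.51, limma adjusted p = 0.0534). Of 8 genes of the nuclear complex 1 was called, against 35.3% of all genes in either direction and 23.2% lower. It was Rbpj (-0.47, SE 0.16, limma adjusted p = 0.0318), and it was called in only 16 of 33 alternatives, among the losses those with median-ratio scaling, quantile normalization or no filter and without clone C1, C43 or C50. Of 10 proteases Aph1b (-0.43) and Aph1c (0.47), homologous subunits of gamma-secretase, were called in opposite directions, against 35.3% of all genes. Aph1b was called in 27 and Aph1c in 19 of 33 alternatives. They are closely similar copies, so both values are uncertain, and how reads were divided between them was not tested. Of the 7 other HES and HEY genes only Hes6 was tested, and its pooled fraction change was -0.07 (limma adjusted p = 0.516). For none of the 44 tested pathway genes was the interaction of fraction and clone called by limma, and 4 passed at an unadjusted p under 0.05, as did 12.9% of all genes. Levels that differed between clones were called by limma for 11 of the 44, against 28% of all genes. These were Aph1a, Aph1b, Psen2, Psenen, Poglut1, Maml3, Snw1, Tle2, Tle3, Dtx3l and Hes6.

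Across the 10 group means of log2(TPM + 1), Pearson's r between pairs of the 6 tested receptors and ligands ran from 0.36 to 0.83. It was 0.83 for Notch1 with Notch3, 0.81 for Notch1 with Jag1 and 0.79 for Jag1 with Dll1. For Hes1 with the other 6 it ran from -0.03 to 0.47. These describe 10 points that share their clones and libraries, including the library trend with gene length, and carry no test. Among 9602 genes with a mean of 5 TPM or more, the pattern most like Hes1 was that of Scfd1 (r = 0.97), followed by Dnajb9 (0.97) and Foxo3 (0.94). The closest to Jag1 were Clk2 (0.97), Pphln1 (0.96) and Ddx20 (0.96). Genes close to Notch1 were Mtmr12 (0.99) and Atg16l1 (0.97), to Notch2 Srcap (0.97), Yeats2 (0.97) and Mfsd6 (0.97), and to Notch3 Ankrd13a (0.98), Sugp1 (0.97) and Sart1 (0.97). Jag2 was closest to Ice2 (0.96), Trappc6b (0.96) and Thtpa (0.96), and Dll1 to Gga1 (0.95), Rnpepl1 (0.94) and Kremen1 (0.94).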

How the data were processed

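RNA-seq of mpkCCD cells was analysed in 22 libraries, grouped by their labels. Per the submitters' processing notes, STAR and RSEM were used, and their versions and the genome build are not given in the sources used here. The authors deposited TPM per gene and library. The depth of a library cannot be read from TPM and is unknown, so replicate spread is the measure of precision. Nothing says that replicates came from separate cultures, so p-values measure the spread between these libraries, which may be technical. The 980 lines that share 1 of 79 symbols were summed, which left 54514 entries, and 16 value columns (group means, ratios and the highest value) were not used.

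Genes that averaged 1 TPM or more were tested on log2(TPM + 1) with limma 3.58.1 (trend; statmod 1.5.0, R 4.3.3), two-sided, with Benjamini-Hochberg adjustment over all tested genes and a threshold of 0.05. WT cells were compared in 6 libraries and GFP fractions in 16, with clone as covariate. Within-clone changes came from a model of group means, and interaction and clone differences from moderated F tests. The code was tested on simulated data. Alternatives were a pseudocount of 0.1, filters at a mean TPM of 5 or none, median-ratio scaling, quantile normalization, other moderation, the number of genes detected as covariate, a replicate block, clone means, and subsets of libraries or clones. A gene length trend, fitted by lowess (statsmodels 0.14.6) on GENCODE exonic lengths found for 98.7% of genes, was removed in an alternative chosen after seeing the data. Members and gene lists were chosen with earlier results of these data known. Other pathway genes could be named if called, the 6 largest in full, and similar patterns were limited to the 3 highest correlations per member, of which 1 is not reported here.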

Additional observations from a re-analysis of the deposited data

How the results depend on the processing

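The 1 member called after dDAVP, against 8.88% of all genes, became 2 with a filter at a mean TPM of 5 (14.3% of all genes), 3 with the number of genes detected as covariate (20%), 2 with the gene length trend removed (13.8%, an alternative chosen after seeing the data) and 0 in the libraries with more genes detected. Leaving out 1 library gave 0 to 4 members, 0 without WT control replicate 2 and 4 without WT dDAVP replicate 2. Over all genes the 1198 calls became 2694 with the covariate, 757 with median-ratio scaling, 442 with no filter, 691 with no trend, 101 in the libraries with more genes detected, and 314 to 2038 when 1 library was left out, the highest without WT dDAVP replicate 2. The replicate block left 0 members and 122 genes (0.904%) after dDAVP, 1 member over the 4 clones (32.5% of all genes) and 1 within clones (11.2% of all gene and clone pairs). With the block Jag1 had a limma adjusted p of 0.0917 after dDAVP, and Rbpj, Tle4 and Dtx4 were not called between fractions. The Hes1 call in C43 was lost with it too. Same-numbered WT libraries correlated at -0.21 to -0.03 in their deviations and clone libraries at 0.02 to 0.20. The labels do not say whether the numbers pair the samples. With so few libraries per group, these correlations cannot decide it. Other pathway genes called after dDAVP, 0 at first, numbered 1 with the filter at 5, 2 with no trend in the moderation, 10 with the covariate and 2 with the length trend removed, and 0 to 10 when 1 library was left out.

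The 1 member called between GFP fractions, against 35.3% of all genes, became 0 in the libraries with fewer genes detected and 4 without clone C50 (40% of all genes), and 1 to 3 when 1 library was left out, 3 of them without C50 GFP-negative replicate 1 (46%). In the libraries with more genes detected the 1 member called was Jag1, lower, in place of Hes1, and 29.9% of all genes were called. The 15 other pathway genes became 1 in the libraries with fewer genes detected, 8 without C1, 9 without C11, 8 without C43 and 4 with clone means as replicates, where 1.96%, 28.7%, 26.2%, 25.5% and 18.3% of all genes were called. Of all genes 4626 were called, 250 in the libraries with fewer genes detected and 2406 with clone means. Within clones 2 of 28 were called, against 14.5% of all gene and clone pairs. The 2 calls became 1 with no filter (3.01%), quantile normalization (16.2%), no trend (13.5%) or the length trend removed (14.5%). They became 1 to 10 when 1 library was left out (9.91% to 29%). All calls within clones, 7608, became 4853 with no filter, 11427 without C50 GFP-negative replicate 1 and 15135 without replicate 2 of that group. The interaction gave 0 to 5 when 1 library was left out, and the 114 genes called became 42 to 5038, the highest without C50 GFP-negative replicate 2, 237 with quantile normalization and 11 with the replicate block. Clone differences gave 1 with the length trend removed (30.1% of all genes) and 1 to 3 when 1 library was left out (20.9% to 44.8%), the 3 where 44.8% of all genes were called. With quantile normalization the 2 members called between clones were Jag2 and Notch3 (33.2% of all genes).

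The sign turned for changes that were not called. After dDAVP, Jag2 was 0.025 with quantile normalization, and Hes1 was 0.15 with median-ratio scaling, 0.0071 with the covariate, 0.0039 in the libraries with more genes detected and -0.059 to 0.040 when 1 library was left out. Between fractions, the libraries with fewer genes detected gave 0.26 for Notch1, 0.14 for Notch3, 0.11 for Jag2 and 0.16 for Dll1. Quantile normalization gave 0.0058 for Notch3 and 0.0013 for Dll1, leaving out C1 gave 0.0018 and 0.026 for the same genes, and leaving out C11 gave 0.035 for Notch1. Hes1 in C11 was -0.031 to 0.27 when 1 library was left out, negative without C11 GFP-negative replicate 2. The cause of these turns was not tested. The fewer-genes set held 1 WT library per group and allowed no test. Dll4 and Hey1 were tested only without a filter and were not called for dDAVP or between fractions, though Dll4 was called between clones.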
